A study of Mus musculus with 12 samples.

Results

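The 36 genes described here are the chaperones, folding enzymes, degradation factors, sensors and secretory components of the endoplasmic reticulum (ER) that respond to, or carry out, the unfolded protein response. They were found by gene name, or by accession where a gene had been renamed, among 17912 genes tested on Agilent arrays of mouse GMP. These granulocyte-monocyte progenitors are marrow cells from which neutrophils and monocytes form. The 36 genes had 50 probes, of which 49 were tested, and the used probe of each gene was well above background on all 12 arrays. All mice carried the vav-Cre transgene, which drives Cre in blood-forming cells and in part of the vessel lining. Native GMP came from Runx1+/+ mice (4 arrays) and from Runx1 floxed mice, labelled Runx1Δ/Δ (4 arrays). For the other 2 groups, Runx1 floxed, vav-Cre marrow was taken 3 days after 150 mg/kg 5-fluorouracil and infected with a MIG retrovirus that carries GFP. The virus expressed either ERt2, a hormone-binding domain that responds to tamoxifen, alone (2 arrays) or RUNX1-ERt2, the same domain joined to RUNX1 (2 arrays), and the cells went into lethally irradiated recipients. After 6 weeks tamoxifen was injected at 49.5 µg per g of body weight on 3 days, and GFP+ GMP were sorted 24 hours later. The labels of both transplanted groups name tamoxifen, whereas the protocol gives it to only some of the mice. Whether the samples of a group were taken from separate mice is not stated, so the p-values reflect only their spread, part of which may be technical. No age or strain is given.

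Proteins that enter the ER are threaded through the Sec61 channel, trimmed by signal peptidase, glycosylated, folded by BiP, GRP94, calnexin and calreticulin, joined by disulfide bonds through protein disulfide isomerases, and passed to the Golgi in COPII vesicles. Proteins that fail to fold are pulled back and degraded. When unfolded proteins build up, the sensors IRE1, ATF6 and PERK switch on the unfolded protein response: IRE1 splices the Xbp1 mRNA into an active form, ATF6 is cut into a transcription factor, and PERK slows translation. XBP1 and ATF6 then raise many of the chaperone genes through the ER stress response element (ERSE). Granulocyte progenitors make large amounts of granule proteins that pass through this route.

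Because XBP1 and ATF6 act on many chaperone genes through the ERSE, its matches in the members are shown here with 10 bases on each side. RefSeq promoter entries (GRCm38.p6) were found for 31 of the 36 genes, and not for Hyou1, Atf6, Manf, Sec61a1 and Derl1. The 250 bases before each start were searched on both strands for the ERSE (CCAAT, then 9 bases of any kind, then CCACG). Capitals mark the fixed bases. Each stretch is written 5′ to 3′ along the strand of the gene, so a match on the opposite strand reads CGTGG before ATTGG.
Hspa5 (chr2:34772015-34772053, plus strand): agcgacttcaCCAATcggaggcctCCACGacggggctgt
Hsp90b1 (chr10:86705628-86705666, minus strand): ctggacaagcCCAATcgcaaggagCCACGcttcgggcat
Hsp90b1 (chr10:86705523-86705561, minus strand): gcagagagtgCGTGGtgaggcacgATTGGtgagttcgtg
Calr (chr8:84847065-84847103, minus strand): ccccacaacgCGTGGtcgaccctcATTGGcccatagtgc
Canx (chr11:50325790-50325828, minus strand): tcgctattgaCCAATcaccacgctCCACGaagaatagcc
Pdia6 (chr12:17266481-17266519, plus strand): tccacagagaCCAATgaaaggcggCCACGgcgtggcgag
Creld2 (chr15:88819510-88819548, plus strand): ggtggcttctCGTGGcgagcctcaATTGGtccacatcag
Derl3 (chr10:75893232-75893270, plus strand): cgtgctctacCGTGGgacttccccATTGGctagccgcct
Syvn1 (chr19:6046522-6046560, plus strand): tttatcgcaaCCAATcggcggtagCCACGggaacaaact
Dnajc3 (chr14:118937817-118937855, plus strand): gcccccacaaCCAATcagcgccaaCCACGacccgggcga
Ero1lb (chr13:12565672-12565710, plus strand): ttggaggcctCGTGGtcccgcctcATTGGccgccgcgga
These 10 genes were 32.3% of the members with an entry, beside 0.13% of 27025 genes in the table (35 genes) with a match. Hsp90b1 held 2 matches. The match began between 212 and 44 bases before the start. A further motif, the UPRE (TGACGTGG), was found in Sec24d alone among the members (3.23% of them and 0.603% of all genes). The RUNX motif (TGTGGT or TGCGGT) was found in Hsp90b1, P4hb, Derl2, Herpud1 and Sec24d, which is 16.1% of the members and 20.9% of all genes. No matches overlapped each other in the members. The Sec24d window is printed whole because it is the member with both a UPRE match, 26 bases before the start, and a RUNX match, 110 bases before the start on the opposite strand. Both are in capitals, and the RUNX match reads ACCGCA on the printed strand.
Sec24d (chr3:123267246-123267495, plus strand): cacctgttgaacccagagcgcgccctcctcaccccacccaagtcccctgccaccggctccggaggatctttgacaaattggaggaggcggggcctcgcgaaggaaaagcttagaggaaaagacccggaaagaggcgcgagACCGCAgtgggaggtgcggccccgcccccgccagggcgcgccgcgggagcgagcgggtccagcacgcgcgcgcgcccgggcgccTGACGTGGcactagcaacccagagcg
These matches describe the letters in the windows, and binding was not measured.

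**Figure D1:**
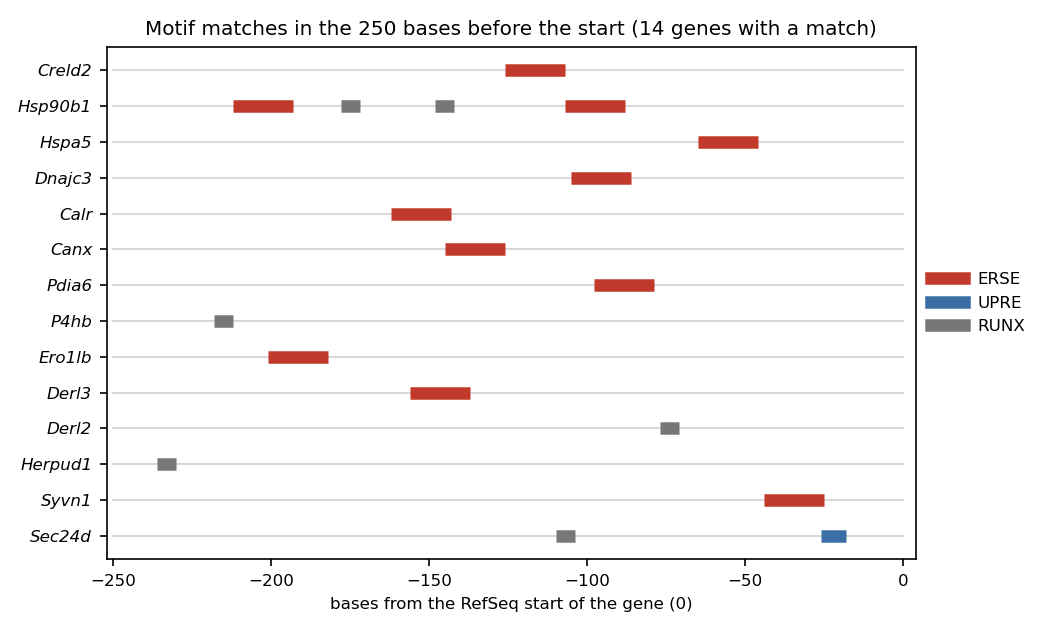
Position of each motif match in the 250 bases before the RefSeq start, for the 14 members with any match. The x axis gives the distance from the start in bases and colours mark the motif. ERSE matches lie between 212 and 44 bases before the start, and the single UPRE match, in Sec24d, is 26 bases before it.

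Per array, 53.5% to 63.2% of 39429 probes exceeded background clearly, the median signal was between 43.0 and 99.2 intensity units, and no spot was saturated. Runx1+/+ and Runx1Δ/Δ arrays shared slides 1 and 2, with 2 arrays of each group on each slide, whereas the ERt2 arrays were all on slide 3 and the RUNX1-ERt2 arrays all on slide 4. Slide and group therefore cannot be told apart in any comparison with a transplanted group. All 11 GMP gate genes (among them Kit, Cd34, Mpo and Elane) were well above background on every array. Runx1 itself had 2 tested probes. Their levels were higher in Runx1Δ/Δ than in Runx1+/+ GMP by 1.61 ± 0.11 and 1.69 ± 0.17, from 0.86 to 2.23 on the Runx1+/+ arrays and from 2.44 to 4.20 on the Runx1Δ/Δ arrays. In ERt2 GMP they were at 2.60 to 3.29 and in RUNX1-ERt2 GMP at 1.56 to 2.33. It was not determined whether either probe falls inside the floxed exons, so they do not check the deletion.

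Of the 36 ER genes, 18 fell and 1 rose in Runx1Δ/Δ compared with Runx1+/+ GMP (limma, adjusted p under 0.05 over all genes), where 13.8% of all genes fell and 11.5% rose. At an unadjusted p under 0.05, 23 were lower and 1 higher, and the share of all genes at that p was not counted. The 18 that fell included GRP94 (Hsp90b1), calreticulin, calnexin, the disulfide isomerase Pdia6, the BiP partners Hyou1 and Sdf2l1, the Sec61 channel subunits and the sensor Ern1. The largest differences were in Sec24d, at −1.72 ± 0.25, and Derl3, at −1.63 ± 0.17. Levels are log2 processed signals relative to the 75th percentile of the array, a difference is between group means, and the error of a difference is the standard error of the fit. A negative level lies below that percentile.

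The median difference of the 36 genes was −0.40, beside −0.05 for all genes tested. The difference was below 0 for 34 of the 36 genes (55.7% of all genes), and below 0 on both slides for 33 (42.2% of all genes). The median of the members was −0.38 on slide 1 and −0.50 on slide 2. For 16 genes all 4 Runx1Δ/Δ arrays lay below all 4 Runx1+/+ arrays (13.2% of all genes), and for 1 gene, Derl1, all lay above (10.1%). By role, 6 of 10 BiP and GRP94 chaperones and partners fell, both lectin chaperones, 3 of 7 disulfide enzymes, 2 of 8 degradation factors, 1 of 4 sensors, and 4 of 5 genes of translocation and export. The arrays measure RNA from a bulk of cells, so fewer cells of a type and less RNA per cell cannot be told apart.

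Each call was also run under 25 other settings, of which 12 leave out 1 array each. Pdia6, Hyou1, Derl3, Dnajc10, Sec24d and Spcs2 were lower past the threshold under all 25. The count of genes that fell was 10 (5.88% of all genes) after normexp background correction, which models the background from the raw spot signals. It was 9 (7.42%) with the authors' series matrix values and 12 (7.8%) when arrays were scaled to their median. Median scaling also moved the share of higher genes among all genes called from 45.5% to 57.4% (58.6% with the series matrix). The count was 10 (8.35% of all genes) without Runx1Δ/Δ replicate 1, 11 (8.13%) without Runx1+/+ replicate 2 and 12 (8.08%) without Runx1Δ/Δ replicate 4. The share of all genes that fell thus dropped as well from 13.8%. Under each member below, the settings that end its call are named.

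**Figure D2:**
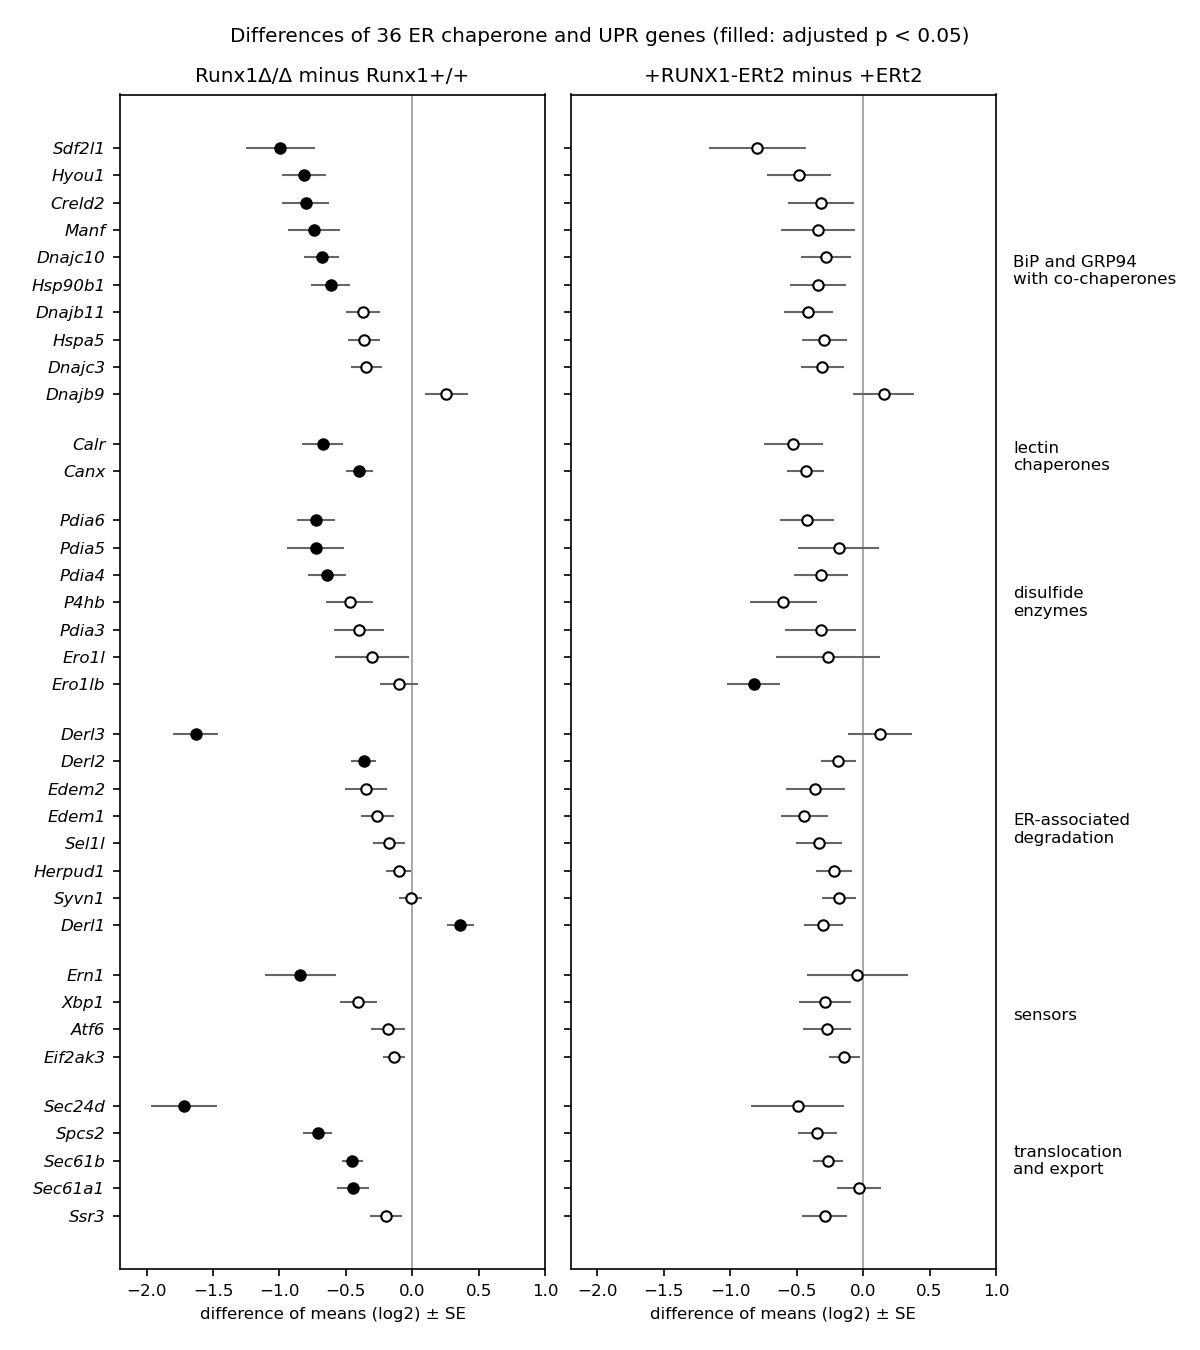
Difference of group means with its standard error (x axis, log2) for each of the 36 genes (y axis, grouped by role), for Runx1Δ/Δ minus Runx1+/+ (left, 4 arrays against 4) and RUNX1-ERt2 minus ERt2 (right, 2 against 2). Filled points passed the threshold: 18 lower and 1 higher on the left, 1 lower on the right. Most points lie left of 0 in both panels.

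**Figure D3:**
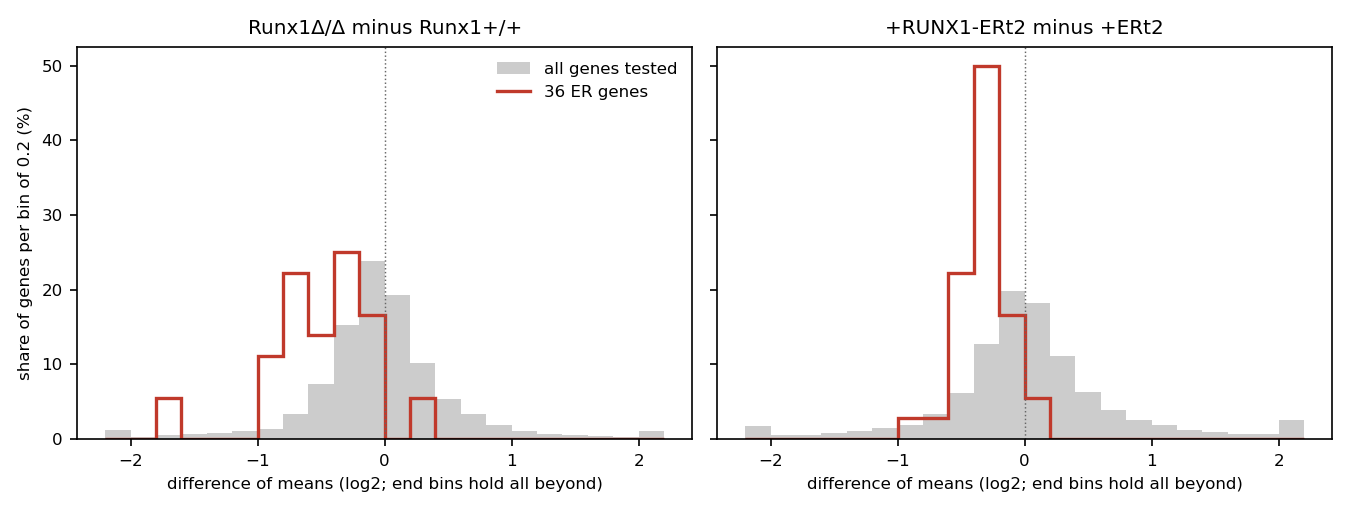
Share of genes in each bin of 0.2 of the difference (x axis, log2; y axis, percent), for the 36 genes (line) and all 17912 genes tested (grey), with end bins holding all values beyond. In Runx1Δ/Δ minus Runx1+/+ the bin from −0.8 to −0.6 held 22.2% of the 36 genes and 3.36% of all genes. In RUNX1-ERt2 minus ERt2 the bin from −0.4 to −0.2 held 50% of the 36 genes and 12.8% of all genes.

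BiP (Hspa5), the main Hsp70 chaperone of the ER lumen, had a mean level of 5.70 ± 0.27 (SD, n = 4) in Runx1+/+ and 5.34 ± 0.42 in Runx1Δ/Δ GMP. Its difference of −0.36 ± 0.12 did not pass the threshold (limma, adjusted p = 0.0519). It passed with the filter for probes above background on all 12 arrays, and with only the arrays compared. It also passed without Runx1+/+ replicate 4, without either ERt2 array, and with the RUNX1-ERt2 numbers crossed in a replicate block. GRP94 (Hsp90b1), the Hsp90 of the ER, was at 5.02, 5.18, 5.08 and 5.17 on the 4 Runx1+/+ arrays and at 4.58, 4.90, 4.43 and 4.08 on the Runx1Δ/Δ arrays. All Runx1Δ/Δ arrays were lower, most of all replicate 4. The difference was −0.61 ± 0.15 (adjusted p = 0.017), with −0.36 within slide 1 and −0.87 within slide 2. This call was lost without Runx1Δ/Δ replicate 1 (adjusted p = 0.051) and with normexp background correction or the deposited matrix values (up to 0.0707). Hyou1, a large Hsp70 relative that serves BiP as a nucleotide exchange factor, was at −1.71, −1.33, −1.84 and −1.99 in Runx1+/+ and at −2.44, −2.02, −2.63 and −3.04 in Runx1Δ/Δ GMP. The groups did not overlap, and the difference was −0.82 ± 0.17 (adjusted p = 0.00859), with −0.71 within slide 1 and −0.92 within slide 2.

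Sdf2l1, which works with BiP and its J-protein partners, was at 1.97, 2.33, 2.31 and 1.79 in Runx1+/+ and at 0.99, 1.67, 1.25 and 0.52 in Runx1Δ/Δ GMP. Every Runx1Δ/Δ array was lower, and the difference of −0.99 ± 0.26 (limma, adjusted p = 0.0224) was the largest of this role. It did not pass without Runx1+/+ replicate 2 or 3 or Runx1Δ/Δ replicate 1 or 4 (adjusted p up to 0.0701) and with the deposited matrix values. Creld2, a secreted protein of the ER stress response, was at 3.54, 3.87, 3.80 and 3.37 in Runx1+/+ and at 2.81, 3.14, 2.94 and 2.49 in Runx1Δ/Δ GMP. The groups were separate, with a difference of −0.80 ± 0.18 (adjusted p = 0.0116, 0.0502 with the series matrix). Manf, a small ER protein that binds BiP, was at 2.31, 2.52, 2.66 and 1.92 in Runx1+/+ and at 1.52, 1.94, 1.74 and 1.25 in Runx1Δ/Δ GMP. Runx1+/+ replicate 4 was just below the highest Runx1Δ/Δ array, so the groups overlapped. Its difference was −0.74 ± 0.19 (adjusted p = 0.0236), and the call was lost without Runx1+/+ replicate 2 or 3 or Runx1Δ/Δ replicate 1 or 4 (adjusted p up to 0.0749) and with normexp background correction, scaling to the array median or the deposited matrix values.

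Among the J-proteins, which bring clients to BiP, Dnajc10 (ERdj5, also a disulfide reductase) was at 2.41, 2.42, 2.38 and 2.35 in Runx1+/+ and at 1.93, 1.88, 1.64 and 1.38 in Runx1Δ/Δ GMP. The Runx1+/+ arrays lay close together and all Runx1Δ/Δ arrays were lower. The difference was −0.68 ± 0.13 (limma, adjusted p = 0.00665) and −0.89 for its other probe. The other 3 did not pass: Dnajc3 differed by −0.35 ± 0.11 (adjusted p = 0.0529) and Dnajb11 by −0.37 ± 0.13 (adjusted p = 0.0632). Dnajc3 passed with quantile normalization, with the filter on all 12 arrays and without Runx1Δ/Δ replicate 3, and Dnajb11 with only the arrays compared. Both passed without either ERt2 array and with the RUNX1-ERt2 numbers crossed in a replicate block. Dnajb9 (ERdj4) had a positive difference of 0.26 ± 0.16 (adjusted p = 0.289), and −0.069 for its other probe.

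Both lectin chaperones, which hold newly made glycoproteins until they fold, fell. Calreticulin (Calr), the soluble one, was at 4.78, 5.04, 5.25 and 4.78 in Runx1+/+ and at 4.30, 4.56, 4.27 and 4.01 in Runx1Δ/Δ GMP. Its groups were separate, and the difference was −0.68 ± 0.16 (limma, adjusted p = 0.0142), with −0.47 within slide 1 and −0.88 within slide 2. It was lost with normexp background correction, scaling to the array median or the deposited matrix values (up to 0.0612). Calnexin (Canx), the membrane-bound one, was at 4.69, 4.69, 4.67 and 4.61 in Runx1+/+ and at 4.27, 4.18, 4.46 and 4.17 in Runx1Δ/Δ GMP. Here too every Runx1Δ/Δ array was lower, with a difference of −0.40 ± 0.10 (adjusted p = 0.0189). The Canx call was lost without Runx1+/+ replicate 1 or 2 or Runx1Δ/Δ replicate 1, 2 or 4 (adjusted p up to 0.062) and with normexp background correction, quantile normalization, scaling to the array median or the deposited matrix values (up to 0.103).

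Of the enzymes that form and rearrange disulfide bonds, Pdia6 had the lowest adjusted p. It was at 6.06, 6.25, 6.28 and 6.08 in Runx1+/+ and at 5.57, 5.55, 5.56 and 5.09 in Runx1Δ/Δ GMP, a difference of −0.73 ± 0.14 (limma, adjusted p = 0.00684), and −0.57 for its other probe. The groups were well apart, with replicate 4 the lowest of the Runx1Δ/Δ arrays. Pdia4 was at 1.19, 1.37, 0.79 and 0.61 in Runx1+/+ and at 0.67, 1.06, −0.19 and −0.15 in Runx1Δ/Δ GMP. Its groups overlapped over both slides, because slide 2 was lower than slide 1 in both genotypes. The difference was −0.41 within slide 1 and −0.87 within slide 2, and the fit gave −0.64 ± 0.14 (adjusted p = 0.0122). Without the slide term it did not pass (adjusted p = 0.16).

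Pdia5 was at 0.26, 0.55, 0.95 and 0.34 in Runx1+/+ and at −0.80, −0.0005, −0.28 and 0.28 in Runx1Δ/Δ GMP. The groups overlapped and the difference was −0.73 ± 0.21 (limma, adjusted p = 0.0364). It was lost without Runx1+/+ replicate 1, 2 or 3 or Runx1Δ/Δ replicate 1 or 3 (adjusted p up to 0.105) and with scaling to the array median, the deposited matrix values, no filter on dim probes, no slide term, only the arrays compared or no moderation of the spread. The other 4 genes of this role did not pass: the classical isomerase P4hb differed by −0.47 ± 0.18 (adjusted p = 0.0855) and Pdia3, the partner of the lectin chaperones, by −0.40 ± 0.19 (adjusted p = 0.155). With replicate blocks in place of the slide term, P4hb passed (20 genes lower in all, Derl1 no longer higher). The oxidases that recharge the isomerases, Ero1l and Ero1lb, differed by −0.30 ± 0.28 and −0.10 ± 0.14. Ero1lb was at −0.46, −0.31, −0.25 and −0.97 in Runx1+/+ and at −0.40, −0.54, −0.62 and −0.85 in Runx1Δ/Δ GMP, with the groups mixed.

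The 3 Derlins, membrane proteins of the channel that returns misfolded proteins to the cytosol, differed from each other. Derl3 was at −1.76, −1.61, −2.07 and −1.85 in Runx1+/+ and at −3.50, −3.39, −3.32 and −3.60 in Runx1Δ/Δ GMP (probe at chr10:75358503-75358562, mm9). The gap between the groups was wider than the spread within either, and the difference of −1.63 ± 0.17 (limma, adjusted p = 0.000326) was 3.1-fold. Derl2 was at 2.70, 2.72, 2.74 and 2.58 in Runx1+/+ and at 2.36, 2.37, 2.37 and 2.16 in Runx1Δ/Δ GMP, without overlap. Its difference was −0.37 ± 0.092 (adjusted p = 0.0196), while its other 2 probes gave −0.23 and 0.07. The Derl2 call was lost without Runx1+/+ replicate 1, 2 or 3 or Runx1Δ/Δ replicate 1 or 4 (adjusted p up to 0.0642) and with normexp background correction, scaling to the array median, the deposited matrix values, no filter on dim probes or the mean of all probes (up to 0.235).

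Derl1 was the one member that rose. It was at 1.70, 1.60, 1.47 and 1.60 in Runx1+/+ and at 1.87, 1.71, 2.13 and 2.12 in Runx1Δ/Δ GMP, and every Runx1Δ/Δ array was higher. The difference was 0.36 ± 0.10 (limma, adjusted p = 0.0311), with 0.14 within slide 1 and 0.59 within slide 2, and 0.06 for its other probe. It was lost without Runx1+/+ replicate 2, 3 or 4 or Runx1Δ/Δ replicate 1, 3 or 4 (adjusted p up to 0.0953) and with no filter on dim probes, replicate blocks, only the arrays compared or the mean of all probes (up to 0.297). The other 5 degradation factors did not pass. These are the ubiquitin ligase Syvn1 (−0.013 ± 0.088), its adaptor Sel1l (−0.18 ± 0.12), its scaffold Herpud1 (−0.10 ± 0.094), and the mannosidase-like proteins Edem1 (−0.26 ± 0.12) and Edem2 (−0.35 ± 0.16).

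Among the sensors, Ern1, which encodes IRE1α, was at 0.78, 0.34, 0.36 and 1.45 in Runx1+/+ and at 0.12, −0.28, −0.48 and 0.21 in Runx1Δ/Δ GMP. The Runx1Δ/Δ arrays were all lower, though both groups spread widely. The difference was −0.84 ± 0.27 (limma, adjusted p = 0.048), and the other 3 probes gave −0.88, −0.51 and −0.98. Its call was lost without any 1 array other than Runx1+/+ replicate 3 (adjusted p up to 0.118), and with normexp background correction, no filter on dim probes, only the arrays compared or no moderation of the spread. Xbp1, the transcription factor whose mRNA IRE1 splices, was at 4.03, 4.13, 4.12 and 3.90 in Runx1+/+ and at 3.70, 3.85, 3.82 and 3.19 in Runx1Δ/Δ GMP. Although every Runx1Δ/Δ array was lower, the difference of −0.41 ± 0.14 did not pass (adjusted p = 0.0602), except with the replicate block (numbers as given or crossed), with the filter for probes above background on all 12 arrays and without Runx1Δ/Δ replicate 3. Whether the probe separates spliced from unspliced mRNA was not determined.

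Atf6, the membrane-bound transcription factor, was at −1.72, −1.76, −1.78 and −2.40 in Runx1+/+ and at −1.84, −1.92, −2.28 and −2.36 in Runx1Δ/Δ GMP. Apart from Runx1+/+ replicate 4, the Runx1+/+ arrays were higher, but the difference of −0.19 ± 0.13 did not pass (limma, adjusted p = 0.323). Eif2ak3, which encodes the kinase PERK, was at −0.14, −0.31, −0.10 and −0.059 in Runx1+/+ and at −0.27, −0.47, −0.19 and −0.25 in Runx1Δ/Δ GMP. These groups overlapped, with a difference of −0.14 ± 0.082 (adjusted p = 0.247).

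In the route into and out of the ER, Sec24d, a cargo adaptor of the COPII coat, was at −0.74, −0.49, −0.48 and −1.50 in Runx1+/+ and at −2.48, −2.27, −2.18 and −3.13 in Runx1Δ/Δ GMP (probe at chr3:123068106-123068165, mm9). Replicate 4 was lowest in both genotypes, and the groups stayed apart. The difference of −1.72 ± 0.25 (limma, adjusted p = 0.00165) was 3.28-fold, and was −1.76 within slide 1 and −1.67 within slide 2. Spcs2, a subunit of signal peptidase, was at 2.56, 2.57, 2.62 and 2.42 in Runx1+/+ and at 1.96, 1.86, 1.86 and 1.64 in Runx1Δ/Δ GMP (probe at chr7:106988218-106988277). Its groups were narrow and separate, with a difference of −0.71 ± 0.11 (adjusted p = 0.00187) and −0.36 for its other probe.

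Sec61b, a small subunit of the translocation channel, was at 5.92, 5.99, 6.24 and 6.21 in Runx1+/+ and at 5.51, 5.58, 5.73 and 5.72 in Runx1Δ/Δ GMP. Slide 2 was a little higher in both genotypes, and all Runx1Δ/Δ arrays lay below all Runx1+/+ arrays. The difference was −0.45 ± 0.081 (limma, adjusted p = 0.00461), lost with normexp background correction (0.0713), and its other 2 probes gave −0.62 and −0.59. Sec61a1, the pore itself, was at 4.45, 4.39, 4.73 and 4.30 in Runx1+/+ and at 3.95, 3.98, 4.25 and 3.91 in Runx1Δ/Δ GMP. The groups were separate by a narrow margin, with a difference of −0.45 ± 0.12 (adjusted p = 0.024). This call was lost without Runx1+/+ replicate 1, 2 or 3 or Runx1Δ/Δ replicate 1, 2 or 4 (adjusted p up to 0.076) and with normexp background correction, quantile normalization, scaling to the array median, the deposited matrix values or no filter on dim probes (up to 0.128). Ssr3, a subunit of the translocon-associated complex, did not pass (−0.20 ± 0.12), while its other probe was lower (−0.60). With the mean of its probes Ssr3 passed.

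**Figure D4:**
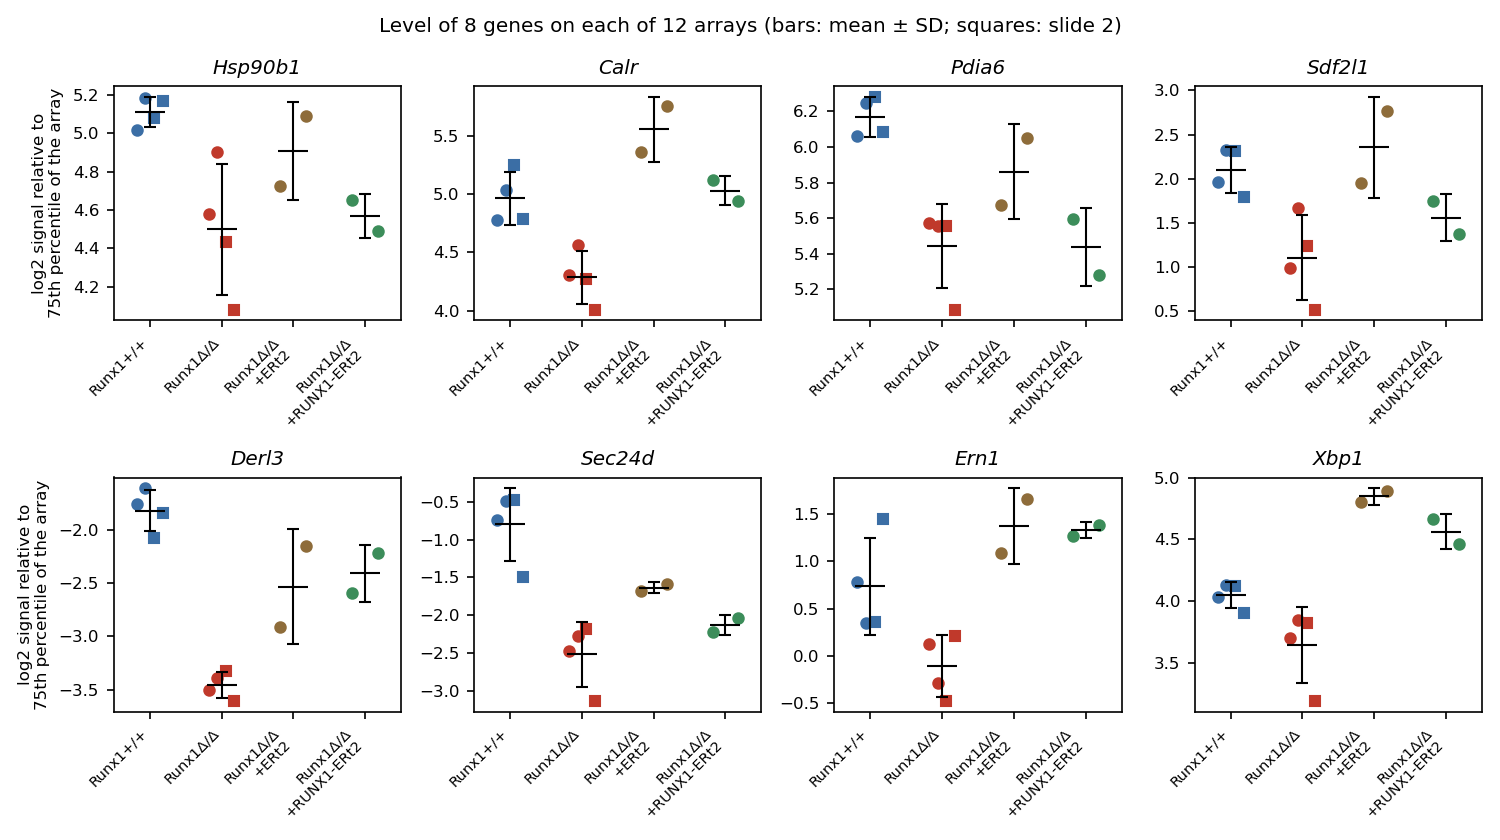
Level of 8 of the genes on each array (y axis, log2 signal relative to the 75th percentile of the array), by group. Points are arrays (squares: slide 2; circles: slides 1, 3 and 4), bars are the mean and SD. Derl3 and Sec24d show the widest gap between Runx1+/+ and Runx1Δ/Δ arrays, and Xbp1 is highest in the ERt2 arrays, at 4.80 and 4.90.

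Members with an ERSE match and those without one both held genes that fell in Runx1Δ/Δ GMP, where 13.8% of all genes fell and 11.5% rose. Of the 10 with a match 6 fell, with a median difference of −0.51 (Hsp90b1, Calr, Canx, Pdia6, Creld2 and Derl3), and Hspa5, Syvn1, Dnajc3 and Ero1lb did not pass. Of the 21 with a promoter entry and no match 9 fell, with a median of −0.40, and of the 5 without an entry 3 fell. Outside the members, 9 tested genes had an ERSE match. None of these 9 fell and 1 rose in limma (median −0.02), and the 1 of 9 is near the share of all genes that rose. With the RUNX motif 3 of 5 members fell (Hsp90b1, Derl2 and Sec24d), and without it 12 of 26. The counts are a description of these windows.

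Genes of the same route that are not members were looked at through 8 lists of 150 tested genes, of which 41 fell and 9 rose in Runx1Δ/Δ GMP, with a median difference of −0.16. Of all genes tested 13.8% fell and 11.5% rose. In N-glycosylation and the calnexin cycle 10 of 18 genes fell and 1 rose. Rpn1, a subunit of the oligosaccharyl transferase, fell by 0.87 ± 0.15 (limma, adjusted p = 0.00404), and Magt1 of the same enzyme by 0.78 ± 0.14 (0.00542). Of the translocon, signal recognition particle and signal peptidase 7 of 20 fell and none rose, among them the channel subunit Sec61g (−0.72 ± 0.10) and Ssr1 (−0.61 ± 0.10). Other folding enzymes gave 8 lower and 1 higher of 23: the prolyl isomerase Fkbp11 fell (−1.80 ± 0.45), while the peroxiredoxin Prdx4 rose (1.17 ± 0.13).

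In ER to Golgi transport 7 of 29 fell and none rose, among them the cargo receptors Lman1 (−0.60 ± 0.13) and Lman2 (−0.59 ± 0.12). Other degradation factors gave 3 lower of 21, such as the mannosidases Edem3 (−0.73 ± 0.14) and Man1b1 (−0.31 ± 0.069). The ATF6 family and its processing gave 1 lower of 10, Creb3 (−0.33 ± 0.078). Both counts are near the 13.8% of all genes that fell. The PERK arm gave 1 lower and 2 higher of 15, where 11.5% of all genes rose. Asns, which makes asparagine and is a target of ATF4, fell by 3.86 ± 0.38 (limma, adjusted p = 0.000222), while Ddit3, which encodes CHOP, rose by 0.79 ± 0.18 (0.0121). Among genes of ER stress outcome and calcium 4 fell and 5 rose of 14, and the death-linked Casp12 (1.61 ± 0.29) and Bbc3 (1.11 ± 0.22) were the largest, both higher.

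Markers of other cells also differed between Runx1+/+ and Runx1Δ/Δ arrays, where 13.8% of all genes fell and 11.5% rose. The sum of linear levels over a list is given per array. Of the plasma cell markers other than Xbp1, a secretory cell rich in these genes, 4 of 7 fell and 1 rose. Their sum was 3.79 to 12.1 on the Runx1+/+ and 1.12 to 3.41 on the Runx1Δ/Δ arrays. Jchain fell by 2.67 ± 0.69. Tnfrsf17 was not well above background on any Runx1Δ/Δ array and was at least 4.04-fold lower, taking the dimmest signal above background as its limit. Irf4 was well above background on 1 of 4 Runx1Δ/Δ arrays. Basophil and mast cell markers gave 5 lower and 1 higher of 8, with Prss34 (−8.10 ± 0.56, well above background on 2 of 4 Runx1Δ/Δ arrays) and Fcer1a (at least 105.2-fold lower) the largest, while their sum was 24.8 to 29.0 on the Runx1+/+ and 37.1 to 63.9 on the Runx1Δ/Δ arrays. Fcer1a and Cma1 were well above background on 0 of 4 Runx1Δ/Δ arrays.

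Monocyte, macrophage and dendritic cell markers gave 6 lower of 8 (Cx3cr1 −3.01 ± 0.37, Cd74 −1.74 ± 0.38), and their sum was 33.0 to 59.3 in Runx1+/+ and 10.8 to 38.5 in Runx1Δ/Δ GMP. Proliferation genes gave 6 lower of 8 (Ccnb1 −0.99 ± 0.24, Plk1 −0.85 ± 0.21), with sums of 92.0 to 121 and 62.0 to 93.5. Megakaryocyte markers gave 4 higher of 8 (Treml1 4.30 ± 0.40, Gp5 2.81 ± 0.34), with sums of 8.74 to 14.4 and 38.5 to 58.6. Stem and early progenitor genes gave 4 higher and 2 lower of 8 (Tek 3.00 ± 0.20, Slamf1 2.96 ± 0.36), with sums of 20.5 to 23.6 and 31.8 to 39.6. Erythroid genes gave 3 higher and 1 lower of 8 (Car1 −3.11 ± 0.77, Alas2 2.16 ± 0.40), with sums of 31.6 to 49.1 and 38.5 to 112. B and T lineage genes gave 1 lower of 8 (Lck −1.31 ± 0.25), near the 13.8% of all genes that fell, with sums of 7.56 to 8.2 and 5.72 to 7.18. Of the late neutrophil genes 0 of 8 passed in limma, also at an unadjusted p under 0.05, with sums of 50.4 to 277 and 20.6 to 267. The GMP gate genes gave 2 higher and 4 lower of 11 (Cebpa −0.92 ± 0.16, Ctsg −0.74 ± 0.23), with sums of 619 to 868 and 435 to 560. The part of these markers in the differences of the ER genes was not tested.

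By the probe used for each gene, none of the genes that had fallen passed as higher in GMP with RUNX1-ERt2. Of the 36 genes, 0 rose and 1 fell in RUNX1-ERt2 compared with ERt2 GMP, where 10.2% of all genes rose and 8.87% fell. At an unadjusted p under 0.05 limma gave 0 higher and 7 lower, without a count over all genes to set beside them. Without moderation of the spread the adjusted counts were again 0 and 1. The median difference was −0.31, beside 0.00 over all genes. It was below 0 for 34 of the 36 genes (50% of all genes), and for 26 both RUNX1-ERt2 arrays lay below both ERt2 arrays (29.8% of all genes). Over all genes 375 (2.09%) fell in Runx1Δ/Δ GMP and rose with RUNX1-ERt2, and by the probe used no member was among them. Another Sec61b probe did pass in both, lower in Runx1Δ/Δ GMP (−0.62) and higher with RUNX1-ERt2 (0.71). These 2 comparisons share no arrays, and 33 of the 36 genes were below 0 in both (25.3% of all genes). Across the 36 genes, which are not independent, their differences had a Pearson r of 0.098 and a Spearman rho of 0.25. For all 18 genes that fell, the 95% interval of the RUNX1-ERt2 difference ended below the estimated size of the fall. This leaves out the error of the fall itself: Ern1 ended at 0.82 beside a fall of 0.84. ERt2 GMP was also already above Runx1Δ/Δ GMP for 24 members, and slide cannot be told apart from group. The intervals therefore cannot decide whether RUNX1-ERt2 restored the genes.

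The gene that fell was Ero1lb, one of the oxidases that recharge the disulfide isomerases. It was at 0.32 and 0.29 on the ERt2 arrays and at −0.57 and −0.47 on the RUNX1-ERt2 arrays (probe at chr13:12701235-12701294, mm9). The pairs were tight and far apart, and the RUNX1-ERt2 level lay within the range of the native arrays. The difference was −0.82 ± 0.20 (limma, adjusted p = 0.0204). It was lost without ERt2 replicate 1 or 2 or RUNX1-ERt2 replicate 1 or 2 (adjusted p up to 0.0931) and with scaling to the array median or the slide as a random block (up to 0.114). With replicate blocks 3 genes fell (7.86% of all genes), the others being P4hb and Sec24d.

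The BiP and GRP94 group was mostly lower in RUNX1-ERt2 GMP, with no member past the threshold. GRP94 (Hsp90b1) was at 4.73 and 5.09 on the ERt2 and 4.65 and 4.49 on the RUNX1-ERt2 arrays, a difference of −0.34 ± 0.21 with a 95% interval of −0.81 to 0.14. Hyou1 was at −2.005 and −1.46 and at −2.12 and −2.30, with a difference of −0.48 ± 0.24. Sdf2l1 was at 1.95 and 2.76 and at 1.75 and 1.37, the widest gap of the group at −0.80 ± 0.37 (interval −1.62 to 0.029). In these 3 genes both RUNX1-ERt2 arrays were below both ERt2 arrays, and ERt2 replicate 2 was the highest. Manf was at 2.26 and 2.63 and at 2.26 and 1.96, a difference of −0.34 ± 0.27. Creld2 was at 3.59 and 4.197 and at 3.66 and 3.49, with one RUNX1-ERt2 array above the lower ERt2 array (−0.32 ± 0.25). Dnajc10 was at 2.06 and 2.50 and at 1.82 and 2.18, also overlapping (−0.28 ± 0.19). Hspa5 differed by −0.29 ± 0.17, Dnajb11 by −0.41 ± 0.18, Dnajc3 by −0.31 ± 0.16 and Dnajb9 by 0.15 ± 0.23.

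Calr, the soluble lectin chaperone, was at 5.36 and 5.75 on the ERt2 arrays and at 5.12 and 4.94 on the RUNX1-ERt2 arrays, a difference of −0.53 ± 0.22 (limma, adjusted p = 0.139, interval −1.03 to −0.025). Canx was at 4.81 and 5.14 and at 4.58 and 4.50, a difference of −0.43 ± 0.14 (adjusted p = 0.0618, interval −0.75 to −0.12). Both were lower on every RUNX1-ERt2 array and missed the threshold. Canx passed after quantile normalization, without Runx1Δ/Δ replicate 3, and with the RUNX1-ERt2 numbers crossed in a replicate block. Among the disulfide enzymes, Pdia6 was at 5.67 and 6.05 and at 5.59 and 5.28 (−0.42 ± 0.20). Pdia4 was at 1.09 and 1.52 and at 1.02 and 0.97 (−0.32 ± 0.20). Both again had separate pairs, whereas Pdia5, at 0.0096 and 0.29 and −0.14 and 0.064, overlapped (−0.18 ± 0.30). P4hb differed by −0.60 ± 0.25, Pdia3 by −0.32 ± 0.27 and Ero1l by −0.26 ± 0.39.

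Derl3, one of the widest falls in Runx1Δ/Δ GMP, was at −2.92 and −2.16 on the ERt2 and −2.60 and −2.22 on the RUNX1-ERt2 arrays. The pairs overlapped, the difference was 0.13 ± 0.24, and its interval was −0.42 to 0.67. Derl2 was at 2.85 and 3.18 and at 2.81 and 2.85, separate by a small margin (−0.19 ± 0.13). Derl1, which had risen in Runx1Δ/Δ GMP, was at 1.91 and 1.95 and at 1.64 and 1.63. Its pairs were tight and separate, and the difference of −0.30 ± 0.14 did not pass (limma, adjusted p = 0.195). The other degradation factors lay between −0.44 (Edem1) and −0.18 (Syvn1), none past the threshold (adjusted p from 0.118 to 0.368).

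Of the sensors, Ern1 was at 1.09 and 1.66 on the ERt2 and 1.27 and 1.39 on the RUNX1-ERt2 arrays. Its pairs overlapped, and the difference of −0.043 ± 0.38 had an interval of −0.90 to 0.82. Its sign turned with the mean of all 4 probes (0.14), without ERt2 replicate 2 (0.24) and without RUNX1-ERt2 replicate 1 (0.02). Xbp1 was at 4.80 and 4.90 and at 4.66 and 4.46, a difference of −0.29 ± 0.20 (limma, adjusted p = 0.369). Atf6 was at −1.16 and −0.99 and at −1.26 and −1.43 (−0.27 ± 0.18), and Eif2ak3 was at −0.23 and −0.22 and at −0.47 and −0.27 (−0.14 ± 0.12). In these 3 genes both RUNX1-ERt2 arrays were lower, with none past the threshold.

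Sec24d, the other wide fall in Runx1Δ/Δ GMP, was at −1.69 and −1.58 on the ERt2 and −2.22 and −2.03 on the RUNX1-ERt2 arrays. The pairs were separate, and the difference was −0.49 ± 0.35 (interval −1.28 to 0.30). Spcs2 was at 3.09 and 3.43 and at 3.04 and 2.80 (−0.34 ± 0.15). Sec61a1 was at 3.94 and 4.17 and at 4.08 and 3.96, overlapping (−0.033 ± 0.17). Sec61b was at 6.04 and 6.28 and at 5.99 and 5.81 (−0.27 ± 0.11). The 3 Sec61b probes did not give the same answer here, with −0.27, 0.71 and −0.28, and the second of them was higher past the threshold. That probe had been lower past the threshold in Runx1Δ/Δ GMP (−0.62). Ssr3 differed by −0.29 ± 0.17.

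In the 8 pathway lists 14 of 150 genes fell and 4 rose with RUNX1-ERt2, with a median of −0.11. The count that fell is near the share of all genes that fell (8.87%), and the count that rose is below the share that rose (10.2%). Other folding enzymes gave 5 lower of 23, including Tmx4 (−1.62 ± 0.38) and Prdx4 (−1.58 ± 0.18), which had risen in Runx1Δ/Δ GMP. Stress outcome and calcium genes gave 3 lower and 1 higher of 14, with Wfs1 (−1.08 ± 0.15) and Bbc3 (1.06 ± 0.31) the largest. The PERK arm gave 2 higher of 15, the pseudokinase Trib3 (2.34 ± 0.36) and Sesn2 (0.75 ± 0.15). ER to Golgi transport gave 2 lower of 29, Mcfd2 (−0.95 ± 0.13) and Preb (−0.33 ± 0.089). Other degradation factors gave 1 lower and 1 higher of 21, with Ubxn8 the lower one (−0.98 ± 0.26). The ATF6 family gave 1 lower of 10 (Creb3l3 −2.46 ± 0.31), the N-glycosylation list 1 lower of 18 (Uggt1 −0.58 ± 0.18) and the translocon list 1 lower of 20 (Ssr4 −0.66 ± 0.16).

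The marker lists were also compared between the transplanted groups, where 10.2% of all genes rose and 8.87% fell. A list of 8 genes with 1 call lies close to these shares. The GMP gate genes gave 6 lower of 11 (Csf1r −2.44 ± 0.42, Elane −2.38 ± 0.52), with sums of 925 to 1043 on the ERt2 and 475 to 647 on the RUNX1-ERt2 arrays. The late neutrophil genes summed to 539 to 665 and to 120 to 138, with 0 of 8 called by limma and 3 lower at an unadjusted p under 0.05 (share of all genes at that p not counted). Monocyte, macrophage and dendritic cell markers gave 3 lower and 1 higher of 8 (Itgax 4.40 ± 0.43, Csf1r again), with sums of 47.3 to 51.4 and 24.2 to 27.7. Plasma cell markers other than Xbp1 gave 2 lower of 7, with sums of 1.60 to 2.19 and 1.63 to 3.92. These were Sdc1 (−2.34 ± 0.36) and Tnfrsf17, which was not well above background on any of the 4 transplanted arrays. Erythroid genes gave 2 higher of 8 (among them Gata1 1.93 ± 0.47), with sums of 115 to 203 and 195 to 256. Basophil and mast cell genes gave 2 higher and 1 lower of 8 (Prss34 3.29 ± 0.79, Ms4a2 2.71 ± 0.28), with sums of 31.9 to 50.8 and 40 to 58.2. B and T lineage genes gave 2 higher and 1 lower of 8 (Vpreb1 5.86 ± 0.45, Lck 1.44 ± 0.36), stem genes 1 higher and 2 lower of 8 (among them Flt3 −1.12 ± 0.28), megakaryocyte genes 1 lower of 8 (Treml1 −2.19 ± 0.56) and proliferation genes 1 higher of 8 (Cdk1 3.09 ± 0.22). On the ERt2 and the RUNX1-ERt2 arrays the B and T lineage sum was 9.781 to 10.72 and 14.8 to 30, the stem sum 13.2 to 22.5 and 11.2 to 12.6. The megakaryocyte sum was 11.6 to 27.9 and 14.5 to 42.7, and the proliferation sum 82.4 to 96.6 and 87.6 to 103. Their part in the values of the ER genes was not tested.

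In transplanted ERt2 compared with native Runx1Δ/Δ GMP 24 of the 36 genes rose and none fell (limma), where 30.2% of all genes rose and 26.7% fell. At an unadjusted p under 0.05, 25 were higher and 1 lower, and the share of all genes at that p was not counted. The median difference was 0.72, beside 0.06 over all genes, and it was below 0 for 4 members (46.9% of all genes). That all-gene median was 0.25 when arrays were scaled to their median, and the share of higher genes among all genes called went from 53.1% to 64.2%. Genotype of the Runx1 locus is shared here, while transplantation, 5-fluorouracil, retrovirus, tamoxifen and slide all differ and cannot be told apart. This comparison shares the Runx1Δ/Δ arrays with the comparison of native GMP, so the members that are high here had a low starting group in both.

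The lowest adjusted p was in Spcs2, 1.43 ± 0.13 higher (2.41e-05, limma), whereas its other probe gave 0.15 and did not pass. The Sec61b probes disagreed, with 0.53 for the probe used, 1.61 and −1.58, the last of them lower past the threshold. Sec61b did not pass with the mean of its probes (adjusted p = 0.226). The other large differences were in Ern1 (1.48 ± 0.33), the isomerase P4hb (1.31 ± 0.22), Calr (1.27 ± 0.19), Sdf2l1 (1.25 ± 0.32) and Xbp1 (1.21 ± 0.17). Atf6, which did not pass between native genotypes, was also higher (1.03 ± 0.16), as were Edem2 (1.09 ± 0.19) and Ero1lb (0.91 ± 0.17). Derl3 (0.92 ± 0.21) and Sec24d (0.88 ± 0.30) rose as well, and stayed below their Runx1+/+ means. The 4 genes with a difference below 0 were Hspa5 (−0.016 ± 0.15), Derl1 (−0.024 ± 0.13), Herpud1 (−0.30 ± 0.12, adjusted p = 0.0518) and Dnajb9 (−0.43 ± 0.20). Herpud1 fell with the replicate block. With the slide as a random block 18 genes rose (19.5% of all genes), and Hyou1, Manf, Dnajc3, Dnajc10, Sec24d and Ssr3 did not pass. Without ERt2 replicate 2, 14 genes rose, beside 20.6% of all genes. Pdia3, Hyou1, Sdf2l1, Manf, Derl3, Dnajc3, Dnajc10, Ern1, Sec24d and Ssr3 no longer passed.

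RUNX1-ERt2 GMP set beside Runx1+/+ GMP had 7 genes lower and 3 higher, where 24.1% of all genes were lower and 21.9% higher. The median was −0.15, beside 0.00 over all genes, and 24 members were below 0 (49.7% of all genes). The 7 were Hspa5 (−0.67 ± 0.15, limma, adjusted p = 0.00497), Hsp90b1 (−0.54 ± 0.18), Pdia6 (−0.73 ± 0.17), Derl3 (−0.59 ± 0.21), Herpud1 (−0.62 ± 0.12), Sec61a1 (−0.45 ± 0.14) and Sec24d (−1.33 ± 0.30). The 3 higher genes were Xbp1 (0.52 ± 0.17), Atf6 (0.57 ± 0.16) and Spcs2 (0.37 ± 0.13). The other Spcs2 probe gave −0.32, and the Spcs2 call was lost under 15 of 25 settings, with a difference of 0.027 for the mean of its probes. Of the other calls, Derl3 was lost under 17 of 25 settings, Hsp90b1 under 14, Sec61a1 under 11, Xbp1 under 7 and Atf6 under 5. Pdia6 was lost under 4, Hspa5 under 3, Herpud1 under 1 and Sec24d under 0. The other Pdia6 probe gave −0.16 and did not pass. Sec61b, which was not called, had another probe lower (−1.49) and one higher (0.75), and the third Derl2 probe was higher (0.46). These counts moved with the setting. There were 2 lower and 2 higher with arrays scaled to their median (18.3% and 25.8% of all genes). That scaling moved the all-gene median to 0.14 and the share of higher calls from 47.6% to 58.5%. With the slide as a random block there were 3 lower and 0 higher (15.9% and 11.5% of all genes). Left out 1 at a time, the arrays gave 2 (without RUNX1-ERt2 replicate 2) to 8 lower and 0 (without RUNX1-ERt2 replicate 1) to 4 higher. Hspa5, for example, had an adjusted p of 0.0545 without RUNX1-ERt2 replicate 2.

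Ordered by group mean, Runx1Δ/Δ was the lowest of the 4 groups for 27 of the 36 genes (29.7% of all genes), ERt2 the highest for 21 (33.3%), and both held for 20 (15.3%). Calreticulin shows this order, with means of 4.29 ± 0.23 in Runx1Δ/Δ (SD, n = 4), 4.96 ± 0.23 in Runx1+/+ (n = 4), 5.03 ± 0.12 in RUNX1-ERt2 (n = 2) and 5.56 ± 0.28 in ERt2 GMP (n = 2). Its Runx1+/+ and RUNX1-ERt2 means did not differ beyond their spread (0.066 ± 0.19). Sec24d had another order, with −2.52 ± 0.43 in Runx1Δ/Δ, −2.13 ± 0.13 in RUNX1-ERt2, −1.63 ± 0.073 in ERt2 and −0.80 ± 0.48 in Runx1+/+ GMP.

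**Figure D5:**
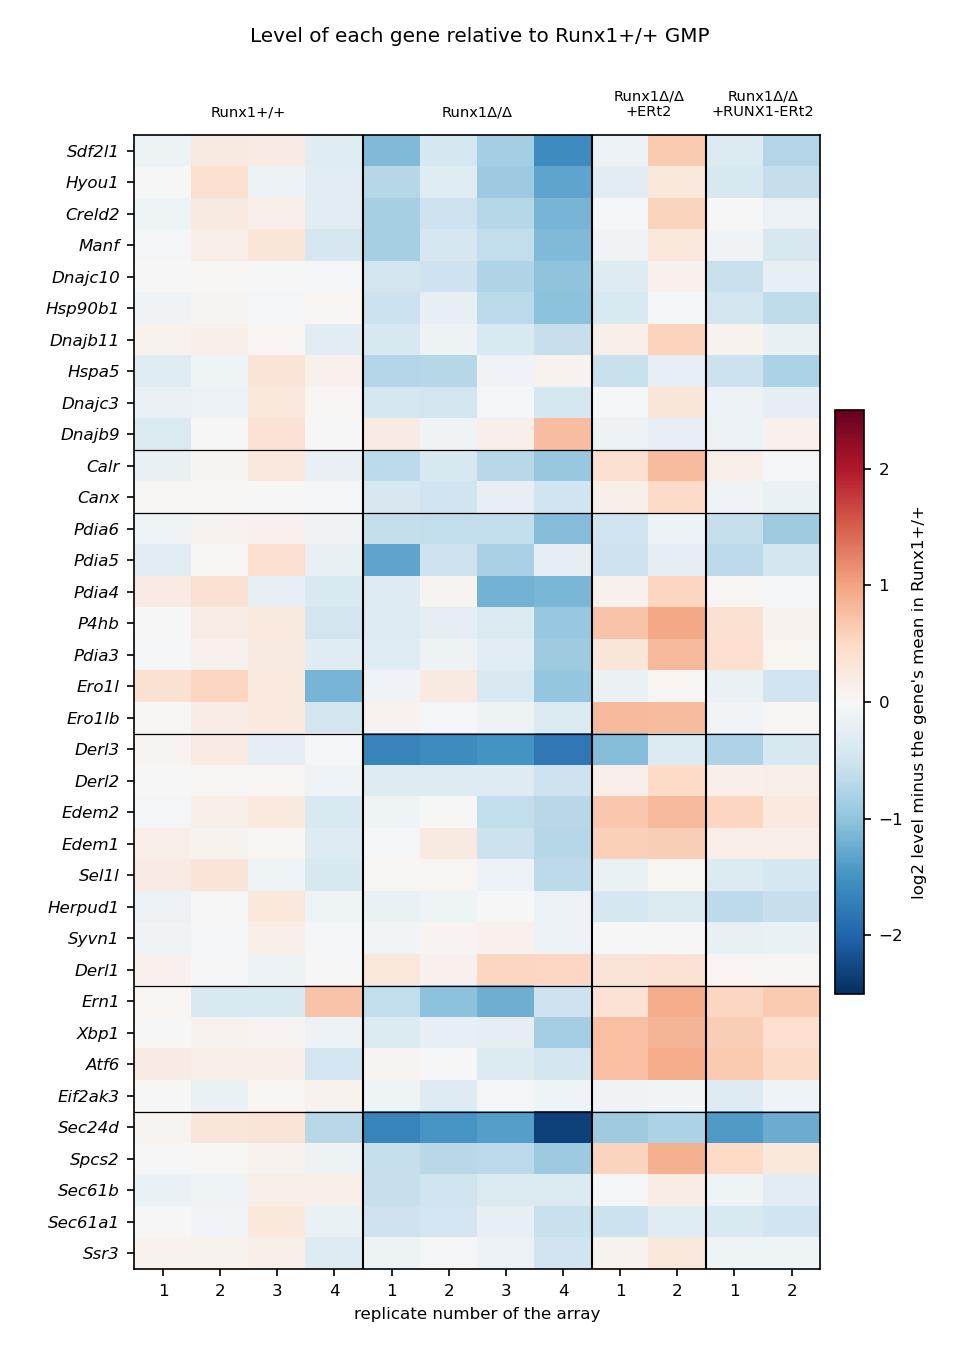
Level of each of the 36 genes (rows) on each of the 12 arrays (columns, by group and replicate), as the log2 difference from the mean of the gene in Runx1+/+ GMP. The Runx1Δ/Δ columns are mostly negative. The column of ERt2 replicate 2 is mostly positive and that of ERt2 replicate 1 is mixed, with replicate 2 above replicate 1 in 34 of the 36 genes.

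Arrays of 1 group also differed from each other over these genes. In ERt2 GMP replicate 2 was above replicate 1 for 34 of the 36 genes (59.3% of all genes). Replicate 4 was the lowest Runx1Δ/Δ array for 26 genes (28.7%) and the lowest Runx1+/+ array for 22 (33.4%). In RUNX1-ERt2 GMP replicate 2 was below replicate 1 for 23 (53.5%). The summed linear level of all 36 genes was 407 to 487 in Runx1+/+, 292 to 337 in Runx1Δ/Δ, 419 to 520 in ERt2 and 346 to 390.0 in RUNX1-ERt2 GMP. The Runx1Δ/Δ arrays were all below the other 8 arrays in this sum, which the brightest genes dominate.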

How the data were processed

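The data are 12 single-colour Agilent arrays of mouse GMP (4 groups). The deposited scanner files hold processed signal intensity per spot, background-subtracted by the authors' scanner software; the file headers give Agilent Feature Extraction 10.7.3.1, and the submitters' processing notes give 9.1. The deposited series matrix holds linear intensity ratio values with column medians of 0.91 to 0.94. By correlation with the scanner intensities, each of its Runx1+/+ and Runx1Δ/Δ columns matched the array of another replicate of the same group. Where the matrix values were used, its columns kept the labels they were given. Its scaling was otherwise not stated.

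From the scanner files, control and outlier spots were left out, the 75th percentile of an array was subtracted from its log2 processed intensities, and a probe was kept where all arrays of 1 or more groups had it well above background. The brightest probe stood for a gene, and values of other probes are given for part of the members. A probe that reached Syvn1 only through a synonym was left out. Probes were named through RefSeq accessions (27234 of 39429), symbols (3576) or synonyms (565), and 8054 kept the name in the file. Probe coordinates are mm9; exon and UTR annotation was not analysed here. Differences were tested with limma 3.58.1 in R 4.3.3 on all 12 arrays and 17912 genes, with the slide as a term for native GMP (7 residual and 2.11 prior degrees of freedom), and p-values were adjusted by Benjamini-Hochberg with a threshold of 0.05. The scripts were tested on simulated data.

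Named with their value on every array were the members past the threshold in Runx1Δ/Δ minus Runx1+/+ or in RUNX1-ERt2 minus ERt2 and the 4 sensors. Of each pathway and marker list up to 2 genes with the largest change past the threshold were named per comparison. A few genes that this rule picks are not reported here. The members and all lists were chosen with earlier results of these data known. Arrays with the same number in Runx1+/+ and Runx1Δ/Δ deviated together from their group means (r = 0.37, 0.35, 0.18 and 0.67). The replicate block, 1 of the alternatives, therefore treated the numbers as pairs of native samples. Relative to slide means r was −0.027 on slide 1 and 0.43 on slide 2, and only Runx1+/+ replicates 1 and 4 correlated best with their own number. Native arrays of the same number lie on 1 slide, so slide and pair are not separate, and whether the numbers mark true pairs is not known. ERt2 and RUNX1-ERt2 numbers did not deviate together (r = −0.19). The alternatives were normexp background correction (offset 50), quantile normalization, scaling to the array median, the series matrix, 2 other filters on dim probes, no slide term, the slide as a random block, the replicate block, only the arrays compared, the mean of all probes, no moderation, and leaving out each array. The number of arrays limits the precision.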

Additional observations from a re-analysis of the deposited data

Results flagged for a closer look

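In 6 of the 72 sets of 4 native arrays looked at (36 genes in 2 genotypes), 1 array stood far from the other 3, as measured by the ratio of its gap to the nearest array over the whole range, which lay above Dixon's 95% critical value. Chance alone does so in about 1 of 20 sets. In Runx1Δ/Δ GMP, replicate 4 was low for Pdia6 (5.09, the nearest array at 5.55, ratio 0.964) and for Derl2 (2.16, nearest 2.36, ratio 0.964), and replicate 3 was high for Dnajc3 (0.97, nearest 0.59, ratio 0.915). In Runx1+/+ GMP, replicate 4 was low for Atf6 (−2.40, nearest −1.78, ratio 0.907), for Ssr3 (3.46, nearest 3.88, ratio 0.902) and for Ero1l (−3.33, nearest −1.92, ratio 0.832). Pdia6 fell in Runx1Δ/Δ GMP also when Runx1Δ/Δ replicate 4 was left out, whereas Derl2 did not pass without it.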

How the results depend on the processing

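With normexp background correction 10 members fell in Runx1Δ/Δ GMP (5.88% of all genes), and with the series matrix 9 (7.42%), against 18 (13.8%). The 1 that rose became 0 with no filter on dim probes, only the arrays compared, the mean of all probes and both replicate blocks. In that order 5.18%, 11%, 11%, 9.95% and 13.4% of all genes rose. Between RUNX1-ERt2 and ERt2, 1 lower became 2 with quantile normalization (8.98% of all genes) and 3 with the replicate block (7.86%). It became 0 with median scaling (8.21%) or the slide as a random block (3.34%). Between ERt2 and Runx1Δ/Δ, 0 lower became 1 with quantile normalization, the filter on all 12 arrays, no moderation and both replicate blocks. Of all genes 24.1% to 28.7% were lower under these. The 24 higher became 18 with the slide as a random block (19.5% of all genes) and 21 with normexp (20.5%). They became 26 with median scaling (37.5%) or the matrix values (36.5%). Between RUNX1-ERt2 and Runx1+/+, 7 lower became 4 with normexp (14.3% of all genes), with no filter (13.2%) and with no slide term (20.3%). They became 2 with median scaling (18.3%), and 3 when the slide was a random block (15.9%) or the matrix values were used (18.8%). The 3 higher there became 1 with no filter (11%), with no slide term (17.2%) and with only the arrays compared (17.4%). None was higher with the slide as a random block (11.5%). Leaving out 1 array gave 10 to 20 lower and 0 to 1 higher in Runx1Δ/Δ, 0 to 2 lower and 0 higher in RUNX1-ERt2 against ERt2, 14 to 24 higher and 0 to 1 lower in ERt2 against Runx1Δ/Δ, and 2 to 8 lower and 0 to 4 higher in RUNX1-ERt2 against Runx1+/+. Ern1 turned sign in RUNX1-ERt2 against ERt2 with the mean of all probes (0.14), without ERt2 replicate 2 (0.24) and without RUNX1-ERt2 replicate 1 (0.016). The cause of these changes was not tested. The median over members kept its sign under every setting run: −0.50 to −0.33, −0.46 to −0.18, 0.53 to 0.91 and −0.19 to −0.018 in the order of the comparisons above.

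The replicate block for the paired native arrays gave 20 lower and 0 higher in Runx1Δ/Δ (P4hb and Xbp1 gained, Derl1 lost), 3 lower in RUNX1-ERt2 against ERt2, 1 lower and 24 higher in ERt2 against Runx1Δ/Δ, and 7 lower and 3 higher in RUNX1-ERt2 against Runx1+/+, where Hsp90b1 and Spcs2 lost their calls. With the RUNX1-ERt2 numbers crossed, chosen after seeing the data, the counts were 24 lower and 0 higher, 7 lower, 1 lower and 25 higher, and 9 lower and 4 higher.

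With 2 arrays per transplanted group, each group on a slide of its own, a difference there rests on little replication, and slide cannot be told apart from group. All 36 members were well above background, so signal over background limits them little. Fcer1a and Tnfrsf17, below background on all Runx1Δ/Δ arrays, are given as a bound there, and the Prss34 value rests in part on 2 arrays below background.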
